A study of Homo sapiens with 4 samples.

Results

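The genes described here are the 10 that encode the enzymes of glycolysis from glucose-6-phosphate isomerase to pyruvate kinase: GPI, ALDOA, ALDOC, TPI1, GAPDH, PGK1, PGAM1, ENO1, ENO2 and PKM. They were chosen by their place in the pathway, with earlier results of these data known. Other isozymes of the same steps, such as ENO3, were not among the 10. All 10 were found among the 28729 genes measured. All 10 were also among the 12645 genes with a mean level high enough to test.

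Glycolysis splits glucose into pyruvate in the cytosol. GPI turns glucose-6-phosphate into fructose-6-phosphate, aldolase (ALDOA, ALDOC) cuts fructose-1,6-bisphosphate into a pair of 3-carbon sugars, and TPI1 interconverts these. GAPDH, PGK1, PGAM1, enolase (ENO1, ENO2) and pyruvate kinase (PKM) then carry the 3-carbon unit to pyruvate, and PGK1 and pyruvate kinase are the steps that make ATP. Tumor cells often run this pathway fast even with oxygen at hand, and many of its genes are known targets of the hypoxia-inducible factors and of c-Myc.

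RNA-seq was performed on 4 cultures of TU-177, an established human laryngeal squamous cell carcinoma (LSCC) line. Lentiviruses brought in either a negative control shRNA (NC, 2 libraries) or an shRNA against SKA3 (SKA3-KD, 2 libraries), all cells were selected with puromycin, and replicates carry the numbers 1 and 2 in each group. Levels are FPKM, fragments counted per kilobase of exon and divided by the size of the library, and stood on between 9015056 and 11966130 reads per library. The comparison addressed whether depletion of SKA3, a subunit of the complex that holds kinetochores to spindle microtubules, came with a change in the RNA of these enzymes. No source used here says that the 2 libraries of a group came from separately transduced cells, so p-values measure the spread between these libraries, which may be technical. The number of shRNA sequences behind the SKA3-KD cells is not given in the labels.

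SKA3 itself was at 9.40 and 9.64 FPKM in NC and at 3.77 and 4.12 FPKM in SKA3-KD, with no overlap between the groups. It fell by 1.09 on the log2 scale (SE 0.07, adjusted p = 0.00806, limma), so the labels hold. Of the 9 squamous markers fixed for the check of the cell type, KRT17, SFN and EPCAM were above a mean of 1 FPKM, whereas KRT5, KRT14 and KRT6A stood at or near 0 and TP63 and CDH1 below 0.6 FPKM in every library and DSG3 was not analysed here. The summed level of these markers was 193 and 208 FPKM in NC and 167 and 189 FPKM in SKA3-KD, and KRT17 fell by 0.53 on the log2 scale (adjusted p = 0.0396, limma). Summed levels of the 4 leukocyte markers and of the 2 endothelial markers measured were at most 1.38 and 0.0968 FPKM. Summed levels of 6 fibroblast markers were 15.4 and 15.8 FPKM in NC and 8.86 and 9.56 FPKM in SKA3-KD, led by DCN, which fell by 1.46 on the log2 scale (adjusted p = 0.0065, limma). PDGFRB of the same list was at 2.88 and 2.46 FPKM in NC and at 3.19 and 4.13 FPKM in SKA3-KD, higher in both. Limma did not call it (0.34, adjusted p = 0.165, limma), whereas limma voom did (adjusted p = 0.0198, limma voom). Limma voom called DCN and COL1A1 of this list lower (COL1A1 -0.40, adjusted p = 0.0135, limma voom). Over all genes tested it called 12.1% lower and 13.7% higher. The part of these markers in the enzyme values was not tested.

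The RNA of most of the 10 enzymes was somewhat lower in SKA3-KD, and none of the differences passed the test across all genes. The difference in log2(FPKM + 1) was negative for 8 enzymes and positive for ENO1 and ENO2, with a median of -0.17 against 0.01 over all genes tested. The libraries were unequal in this, with a median difference from the NC mean of -0.31 in SKA3-KD 1 and of -0.04 in SKA3-KD 2. ALDOC had the most negative difference, at 61.7% of its NC mean, and ENO2 the most positive, at 136.7% of its NC mean. At an adjusted p under 0.05 limma called 0 of the 10 enzymes in either direction, where it called 6.11% of all genes tested lower and 6.16% higher. At an unadjusted p under 0.05, which 15.1% of all genes met in the lower direction and 16.2% in the higher, ALDOC, TPI1 and PGAM1 were lower and no enzyme was higher. With the replicate number as a block, limma again called none of the 10, against 7.63% of all genes lower and 7.92% higher. A count test (limma voom) on the whole reads recovered from the FPKM steps called 4 enzymes lower (ALDOC, TPI1, PGK1 and PGAM1) and 1 higher (ENO2), against 12.1% and 13.7% of all genes. In bulk RNA, fewer cells that express a gene and less RNA per cell cannot be told apart.

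**Figure D1:**
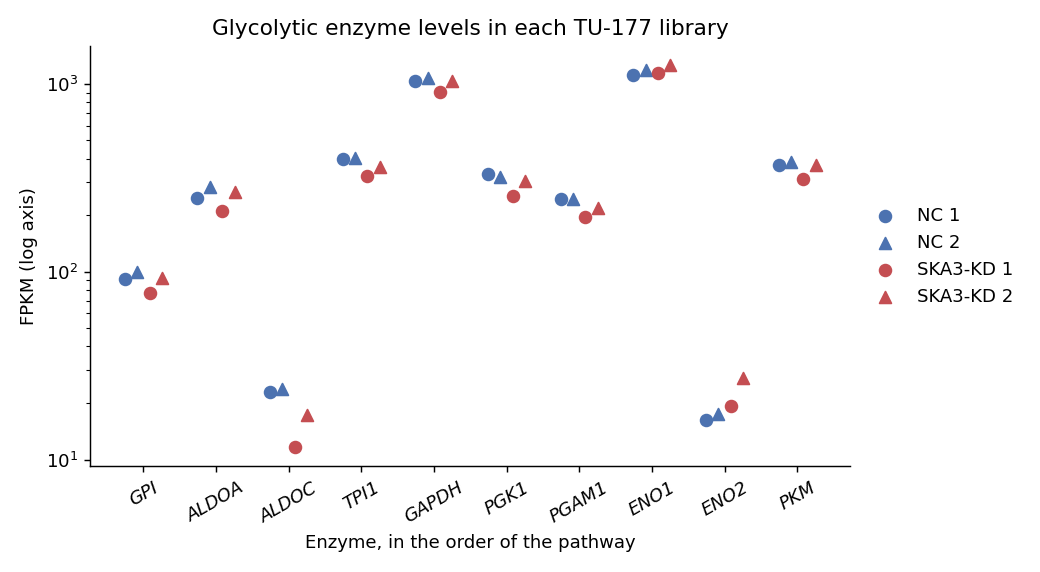
FPKM (log axis) of each of the 10 enzymes, in the order of the pathway, with 1 point per library: NC in blue and SKA3-KD in red, circles for replicate 1 and triangles for replicate 2. ENO1 and GAPDH lie highest, at 905 FPKM or more, and ALDOC and ENO2 lowest, at 27.1 FPKM or less, and for each enzyme SKA3-KD 1 lies under SKA3-KD 2.

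Per kilobase of exon, ENO1 (1149 ± 54.1 FPKM, SD, n = 2) and GAPDH (1057 ± 22.4) were the most abundant enzymes in NC, at ranks 20 and 22 of all genes. TPI1 (401 ± 0.442), PKM (377 ± 11.4), PGK1 (326 ± 9.97), ALDOA (265 ± 23.4) and PGAM1 (243 ± 0.222) followed, and then GPI (95.8 ± 6.05), ALDOC (23.4 ± 0.711) and ENO2 (16.9 ± 0.896). No neighbours in this order overlapped between the 2 NC libraries. In SKA3-KD the libraries of TPI1 and PKM, of PGK1 and ALDOA, and of ALDOA and PGAM1 overlapped, and ENO2 (23.2 ± 5.58) stood above ALDOC (14.4 ± 3.91). This order rests on the exon length that each FPKM was divided by, which recovered to the GENCODE 29 length for only 4 of the 10 enzymes. By reads alone PKM, with an exon length of 8572 bases, came second after ENO1 and TPI1, with 2700 bases, came in place 6.

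Promoter sequence is shown for ALDOC and ENO2, whose differences were the most negative and the most positive, and for PGK1, the classic hypoxia-responsive gene of the set. Each line gives the 250 bases before the RefSeq transcription start (GRCh38.p14), written 5′ to 3′ in the direction of the gene. Capitals mark ACGTG or its reverse complement CACGT, a form of the core that hypoxia-inducible factors bind. The form GCGTG was not searched and is left in small letters where it occurs. All 3 windows lie within the GENCODE 29 bounds of their gene, which take in transcripts that begin further upstream.
ALDOC, chr17:28576896-28577145, minus strand: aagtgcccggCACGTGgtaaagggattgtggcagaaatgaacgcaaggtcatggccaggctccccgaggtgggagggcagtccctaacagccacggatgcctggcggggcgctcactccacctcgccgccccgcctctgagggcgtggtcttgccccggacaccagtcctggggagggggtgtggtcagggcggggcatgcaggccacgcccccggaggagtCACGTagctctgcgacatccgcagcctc
PGK1, chrX:78103998-78104247, plus strand: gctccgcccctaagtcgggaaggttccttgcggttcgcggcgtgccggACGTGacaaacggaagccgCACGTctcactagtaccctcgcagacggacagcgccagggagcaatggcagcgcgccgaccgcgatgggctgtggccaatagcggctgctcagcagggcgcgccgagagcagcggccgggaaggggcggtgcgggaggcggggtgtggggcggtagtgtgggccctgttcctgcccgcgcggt
ENO2, chr12:6914330-6914579, plus strand: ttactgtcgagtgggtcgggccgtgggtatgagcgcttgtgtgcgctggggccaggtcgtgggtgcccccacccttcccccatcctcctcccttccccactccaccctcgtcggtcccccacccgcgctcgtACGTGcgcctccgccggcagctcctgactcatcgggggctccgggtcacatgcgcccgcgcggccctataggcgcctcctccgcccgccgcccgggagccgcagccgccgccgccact

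In the ALDOC window CACGTG, which reads as both ACGTG and CACGT, begins 240 bases before the start, and a CACGT begins 28 bases before it. The PGK1 window holds matches 202 and 183 bases before the start, and another begins 28 bases after it, outside the printed stretch. ENO2 has 1 match, 118 bases before the start. Counting both strands from 250 bases before to 50 after the start, ACGTG stood in 6 of the 10 promoters (ALDOC, ALDOA, ENO2, GAPDH, GPI and PGK1) and in 21.6% of 27305 promoters of all genes. TPI1, PGAM1, ENO1 and PKM had no match to ACGTG or CACGT, and GCGTG was not counted for any gene. Only 1 start per gene symbol was searched. The GAPDH window begins at 6535014 on chr12 and the GENCODE 29 gene at 6533927. For PGAM1 the window begins at 97427568 on chr10 and the gene at 97426160. For GPI, counted among the 6 with a match, the window begins at 34364742 on chr19 and the gene at 34359480. Matches at other starts of these genes were therefore not counted. The palindrome CACGTG, the E-box that c-Myc binds and a word that contains ACGTG, stood in ALDOC and GAPDH and in 7.43% of all promoters, and TATAAA in none of the 10 and in 11.95% of all. A match is a description of the sequence and not a bound site.

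The isozymes of aldolase had unequal differences. ALDOC (ENSG00000109107, chr17:28573115-28577264, minus strand, GRCh38), the aldolase best known from brain, was at 22.9 and 23.9 FPKM in NC and at 11.6 and 17.2 FPKM in SKA3-KD. Both SKA3-KD libraries lay below both NC libraries, but SKA3-KD 1 lay further below than SKA3-KD 2. The reads behind these values were 801 and 630 in NC and 347 and 593 in SKA3-KD, so counting error was under 5% while the SKA3-KD libraries differed with a coefficient of variation of 27.1%. The difference was -0.68 in log2(FPKM + 1) (SE 0.18, 95% interval -1.13 to -0.24) and missed the threshold (adjusted p = 0.0678, limma). It was called by limma among the 7303 genes with a mean of at least 5 FPKM (adjusted p = 0.0214), where 12.1% of genes were called lower and 13.6% higher, and by limma voom on recovered reads (adjusted p = 0.000145). ALDOA (chr16:30064164-30070457), the aldolase of muscle and of most other tissues, was at 248 and 281 FPKM in NC and at 210.0 and 267 FPKM in SKA3-KD. Its groups overlapped, and its difference of -0.16 (95% interval -0.49 to 0.18) was not called (adjusted p = 0.466, limma). ALDOA and GPI each share exon sequence (1657 and 542 bases) with a GENCODE 29 gene on the same strand that was not analysed here, and PGK1 shares 97 bases with ATP7A and 95 with a pseudogene, so their levels are uncertain to that extent.

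The ratio of ALDOC to ALDOA within a library does not depend on the scaling of that library. It was 9.22% and 8.49% in NC and 5.54% and 6.44% in SKA3-KD. The level of this ratio rests on the exon lengths behind the FPKM, with 6153 bases for ALDOA against 3916 in GENCODE 29. Its difference between the groups does not. The ratio was lower in both SKA3-KD libraries than in both NC libraries, a log2 difference of -0.57. An exact two-sided permutation test gave p = 0.33, the smallest value that 2 libraries against 2 allow.

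**Figure D2:**
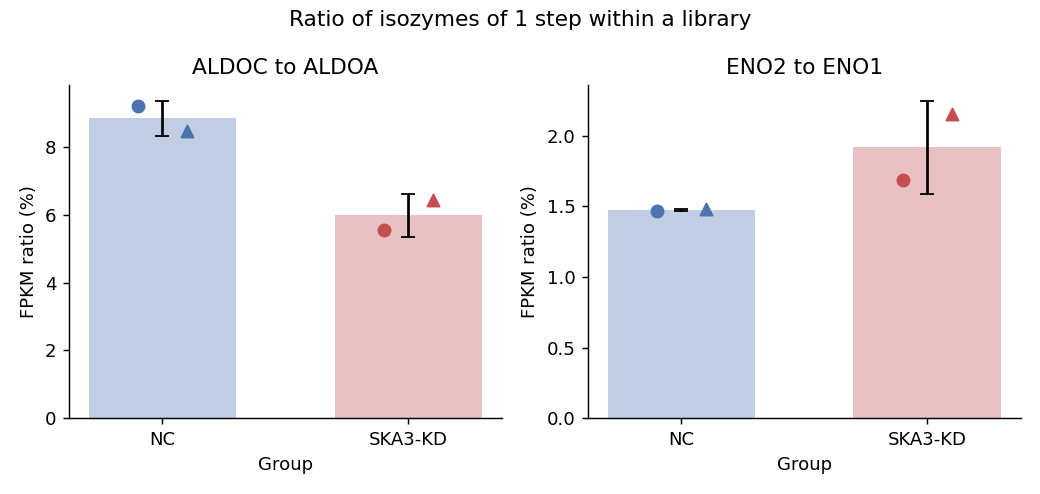
FPKM of ALDOC as a percentage of ALDOA (left) and of ENO2 as a percentage of ENO1 (right), with 1 point per library, bars at the group means and error bars of 1 SD (n = 2). ALDOC to ALDOA is 8.49% or more in NC and 6.44% or less in SKA3-KD, and ENO2 to ENO1 is 1.48% or less in NC and 1.68% or more in SKA3-KD.

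Both enolases of the set had positive differences. ENO2 (ENSG00000111674, chr12:6913745-6923698, plus strand), the neuron-specific or gamma enolase, was at 16.3 and 17.6 FPKM in NC and at 19.2 and 27.1 FPKM in SKA3-KD. The SKA3-KD libraries lay above the NC libraries, SKA3-KD 1 by little and SKA3-KD 2 by much more. The difference was 0.41 in log2(FPKM + 1) (SE 0.16, 95% interval -0.01 to 0.83, adjusted p = 0.164, limma), and the count test on recovered reads called it (0.44, adjusted p = 0.0058, limma voom). ENO1 (chr1:8861000-8879250), the alpha enolase of most tissues, was at 1111 and 1187 FPKM in NC and at 1141 and 1260.4 FPKM in SKA3-KD. Its groups overlapped, and its difference was 0.06 (95% interval -0.12 to 0.25, adjusted p = 0.605, limma).

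ENO2 was 1.47% and 1.48% of ENO1 in NC and 1.68% and 2.15% in SKA3-KD. These levels too rest on the exon lengths behind the FPKM, with 3958 bases for ENO1 against 5276 in GENCODE 29. The ratio was higher in both SKA3-KD libraries, by 0.37 on the log2 scale (exact two-sided permutation p = 0.33). Quantile normalization took this difference down to 0.16 and let the groups overlap. ENO3, the muscle or beta enolase, was measured at 27.3 and 26.5 FPKM in NC and at 27.1 and 24.5 FPKM in SKA3-KD, a level above that of ENO2 in NC. ENO3 did not differ past the threshold (-0.06, adjusted p = 0.613, limma), and ENO1 made up between 96.1% and 96.4% of the enolase FPKM in every library.

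Between aldolase and enolase, TPI1, PGK1 and PGAM1 had close to the same difference. That of GAPDH was smaller in size, but its 95% interval (-0.33 to 0.08) takes in theirs, and the enzymes were not tested against each other. TPI1 (chr12:6867119-6870948) was at 401 FPKM in both NC libraries and at 323 and 361 FPKM in SKA3-KD. Its SKA3-KD libraries were both lower, to 85.2% of the NC mean (-0.23, 95% interval -0.41 to -0.05, adjusted p = 0.0951, limma). PGAM1 (chr10:97426160-97433441), the phosphoglycerate mutase of brain and most tissues, was at 243 FPKM in both NC libraries and at 195 and 218 FPKM in SKA3-KD. It too was lower in both SKA3-KD libraries, at 85.1% of the NC mean (-0.23, 95% interval -0.41 to -0.06, adjusted p = 0.0943, limma). PGK1 (chrX:77910739-78129296) was at 333 and 319 FPKM in NC and at 253 and 304 FPKM in SKA3-KD. The groups did not overlap, though SKA3-KD 2 lay close to NC 2 (-0.23, 95% interval -0.48 to 0.02, adjusted p = 0.184, limma). TPI1 and PGAM1 agreed between their NC libraries more closely than counting error alone would give, with coefficients of variation of 0.11% and 0.0916% against counting errors of 0.948% and 1.25%, so the spread seen in NC understates their error.

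GAPDH (chr12:6533927-6538374) was at 1041 and 1073 FPKM in NC and at 905 and 1037 FPKM in SKA3-KD. SKA3-KD 2 came within a few FPKM of NC 1, and the difference of -0.13 (95% interval -0.33 to 0.08) was not called (adjusted p = 0.342, limma). GPI (chr19:34359480-34402413) was at 91.5 and 100.1 FPKM in NC and at 76.6 and 92.2 FPKM in SKA3-KD. PKM (chr15:72199029-72231822), whose splice forms M1 and M2 cannot be separated in a value per gene, was at 369 and 385 FPKM in NC and at 311 and 372 FPKM in SKA3-KD. For both GPI and PKM, SKA3-KD 2 lay inside the range of NC and SKA3-KD 1 lay below it. Their differences were -0.19 (adjusted p = 0.294) and -0.15 (adjusted p = 0.349, limma). Over the 10 enzymes, both SKA3-KD libraries lay below both NC libraries for 5 and above both for ENO2, while 29.2% and 32.3% of all genes tested did so.

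**Figure D3:**
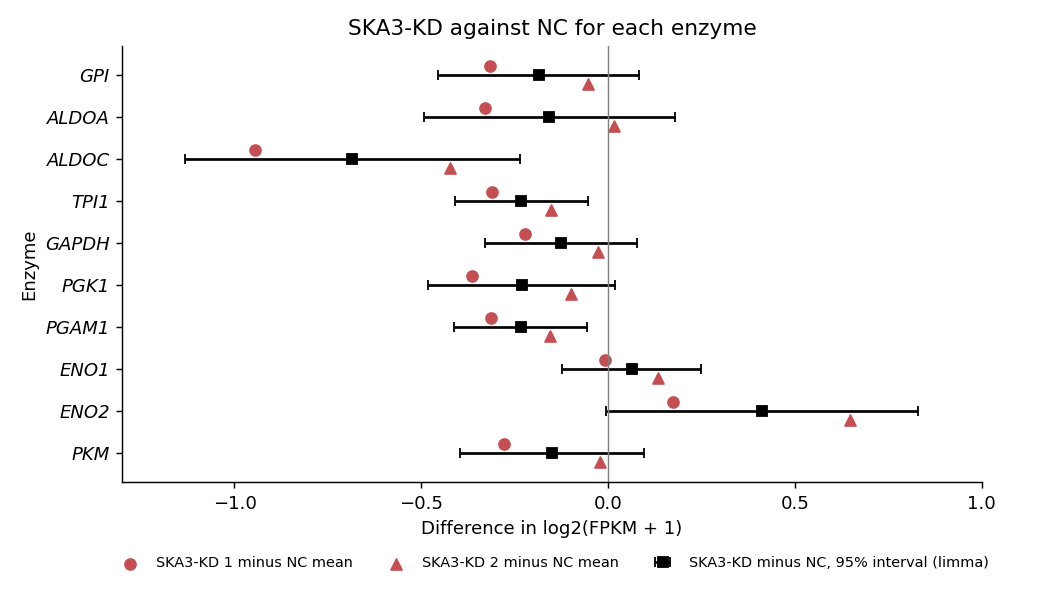
Difference from NC in log2(FPKM + 1) for each enzyme: black squares with bars give SKA3-KD minus NC with its 95% interval from limma, red circles SKA3-KD 1 and red triangles SKA3-KD 2 minus the NC mean. The intervals of ALDOC, TPI1 and PGAM1 lie below 0 before adjustment for the 12645 genes tested, and SKA3-KD 1 lies left of SKA3-KD 2 in each of the 10.

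The 2 SKA3-KD libraries differed from each other in these enzymes. Every one of the 10 was lower in SKA3-KD 1 than in SKA3-KD 2, where 49.2% of all genes tested were. Against the NC mean, SKA3-KD 1 had a median difference of -0.31 over the 10 and SKA3-KD 2 one of -0.04. SKA3-KD 1 lay below both NC libraries for 8 of the 10 and SKA3-KD 2 for 5 of the 10, where 38.4% and 38.2% of all genes did. The gap from SKA3-KD 1 to SKA3-KD 2 ran from 0.14 in ENO1 to 0.52 in ALDOC on the log2 scale, values at the 82.7 and 97.3 percentiles of all genes tested. For comparison, the targeted SKA3 read 3.77 FPKM in the former library and 4.12 FPKM in the latter. The 10 genes share their libraries, so this is a difference between 2 libraries and not 10 independent ones.

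**Figure D4:**
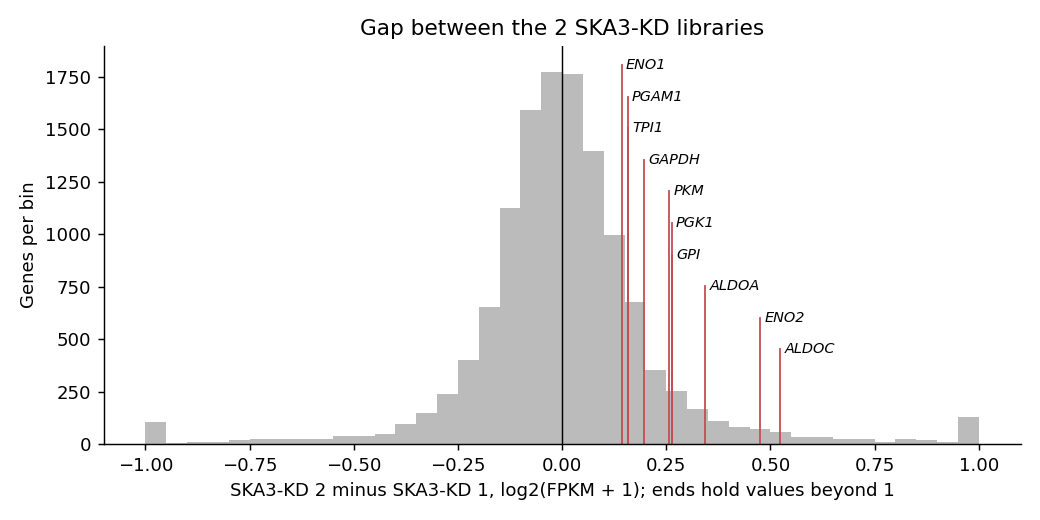
Number of genes (grey bars, all 12645 genes tested) by the difference of SKA3-KD 2 minus SKA3-KD 1 in log2(FPKM + 1), with a red line for each of the 10 enzymes. All 10 lines lie to the right of 0, from 0.14 for ENO1 to 0.52 for ALDOC, and the bars at either end hold genes beyond 1.

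Most hypoxia-inducible genes of a list that holds none of the 10 enzymes had the same library order. Of the 29 tested, 27 were lower in SKA3-KD 1 than in SKA3-KD 2, where 49.2% of all genes tested were. The 29 genes share the same 2 libraries, so this is a difference between 2 libraries and not 29 independent ones. Their median difference from NC came to -0.46 for SKA3-KD 1 and to -0.16 for SKA3-KD 2. Over both libraries the median was -0.29, and limma called 6 of the 29 lower and 1 higher, where it called 6.11% and 6.16% of all genes. FAM162A, a mitochondrial protein induced by hypoxia, was at 25.5 and 25.7 FPKM in NC and at 9.48 and 10.5 FPKM in SKA3-KD (adjusted p = 0.0065, limma). CA12, a carbonic anhydrase, P4HA1, a collagen prolyl hydroxylase, HILPDA, INSIG2 and PFKFB4 also fell, and ANGPTL4, a secreted inhibitor of lipoprotein lipase, rose from 3.10 and 2.95 FPKM to 5.50 and 8.44 FPKM (adjusted p = 0.0374, limma). The log2 gap from SKA3-KD 1 to SKA3-KD 2 had a median of 0.34 over the list. It was 0.05 for HILPDA, 0.07 for INSIG2, 0.13 for FAM162A, 0.18 for CA12, 0.32 for PFKFB4 and 0.53 for P4HA1. The part of these genes, or of oxygen in the cultures, in the enzyme values was not tested.

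Steps on either side of the 10 enzymes gave no call by limma among 8 tested hexokinases, phosphofructokinases and lactate dehydrogenases, with a median of -0.15. At an unadjusted p under 0.05, 2 of them were lower and 1 higher (15.1% and 16.2% of all genes), and limma voom called HK2 and PFKL lower and PFKP higher (12.1% and 13.7% of all genes). With 8 genes tested, nothing particular to these steps is read from those counts. HK2, the hexokinase typical of tumors, was at 30.2 and 28.9 FPKM in NC and at 16.6 and 25.8 FPKM in SKA3-KD (-0.49, adjusted p = 0.17, limma). The same library order held for 7 of these 8 genes, SKA3-KD 1 being the lower, against 49.2% of all genes tested. These genes share the 2 libraries with the 10 enzymes, so the count is not independent of theirs. LDHA, which turns pyruvate into lactate, was at 573 and 540.5 FPKM in NC and at 459 and 542 FPKM in SKA3-KD (-0.16, adjusted p = 0.313, limma).

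GAPDH and PGK1 are also used as reference genes for qPCR and blots. Of 15 other common reference genes, limma called ACTB, or beta-actin, higher (0.50, adjusted p = 0.0122) and PPIA, or cyclophilin A (-0.44, adjusted p = 0.0166), B2M (-0.37, adjusted p = 0.0374) and RPL13A (-0.27, adjusted p = 0.0352) lower. Over all genes tested, limma called 6.16% higher and 6.11% lower. The GAPDH and PGK1 levels were set against ACTB and PPIA, the reference genes with the most positive and the most negative difference, chosen after their values were seen. GAPDH was 71.2% and 71.7% of ACTB in NC and 43.5% and 48.9% in SKA3-KD. Relative to PPIA, GAPDH was 227% and 243% in NC and 268% and 320% in SKA3-KD. The log2 difference of GAPDH was -0.63 against ACTB and 0.32 against PPIA, and that of PGK1 was -0.74 and 0.21. The opposite directions follow from the choice of these denominators and are given as a description, with no test.

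**Figure D5:**
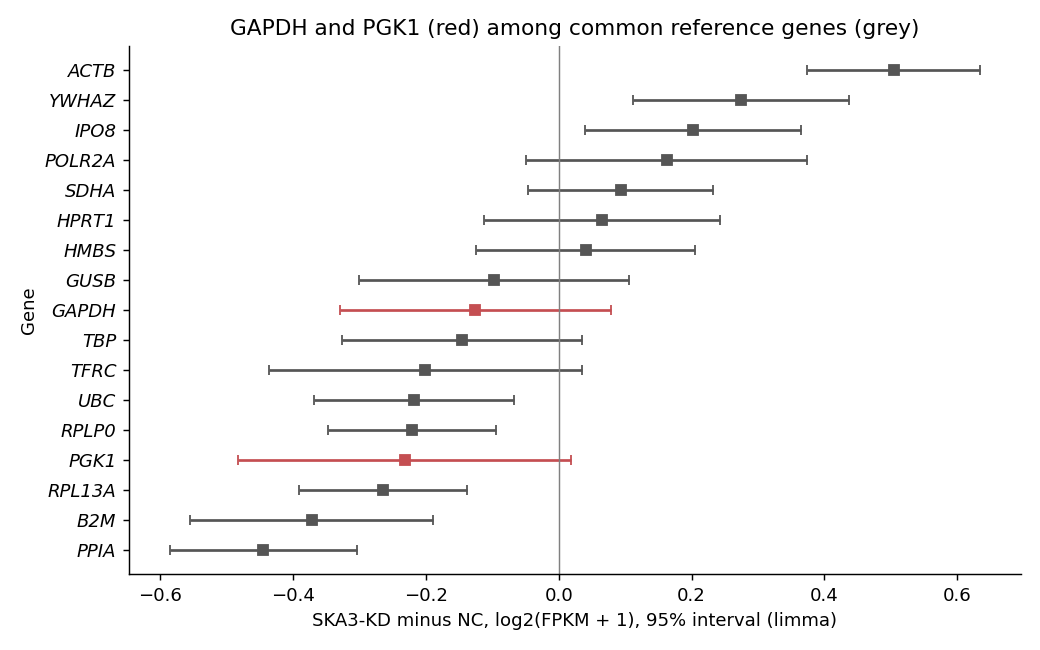
SKA3-KD minus NC in log2(FPKM + 1), with 95% intervals from limma, for GAPDH and PGK1 (red) and 15 common reference genes (grey), sorted by the difference. GAPDH at -0.13 and PGK1 at -0.23 lie between ACTB at 0.50 and PPIA at -0.44, and the intervals of both cross 0.

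Several of these genes have processed pseudogenes that could take reads from them. Of 31 pseudogene entries for the 10 enzymes, 26 were above 0, and together they held 605 reads over the 4 libraries, or 0.085% of the reads of the enzymes. GAPDH had 17 of these entries, and TPI1P1 was the highest for TPI1, whose pseudogenes came to 0.787% of its reads. PGAM4, a near copy of PGAM1, did not exceed 0.455 FPKM. GAPDH, TPI1 and ENO2 lie in this order on the short arm of chromosome 12, with 333 kb between the starts of GAPDH and TPI1 and 46.6 kb between those of TPI1 and ENO2. TPI1 and ENO2, the closest of the 10 on the genome, had differences of opposite sign, -0.23 and 0.41.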

How the data were processed

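RNA from 2 NC and 2 SKA3-KD cultures of TU-177 cells was isolated with Trizol reagent, and Illumina libraries were sequenced. Values deposited by the authors are FPKM, scaled by exon length and library size, for 28729 Ensembl identifiers. The submitters' processing notes name Bowtie2 2.2.8, HISAT2, StringTie 1.3.1, Cuffdiff 2.1.1 and the build hg19, without the role of each. The labels give a lentiviral shRNA for the sequenced cells, whereas the methods of the study also describe sgRNAs with Cas9 for its stable knockdown cells and siRNAs for work in culture; the labels were followed here.

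Symbols and positions were taken by identifier from GENCODE 29 (GRCh38), which held 27199 of the identifiers. Low FPKM values were whole multiples of 1 read, so reads were recovered as whole numbers within 0.005 reads, for 67.5% of the genes above 0 with the GENCODE 29 exon length and for nearly all with a fitted length. Summed over genes, recovered reads exceeded the library size behind the FPKM in all 4 libraries, as with 12371210 against 11966130 in NC 1. The reason was not tested, and some recovered counts may be too high. Replicates differed by more than sampling noise (chi-square per degree of freedom 3.63 in NC and 3.61 in SKA3-KD).

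SKA3-KD was compared with NC by limma 3.58.1 in R 4.3.3 (lmFit, eBayes with a trend) on log2(FPKM + 1) over genes whose mean FPKM was 1 or more, with Benjamini-Hochberg adjustment over all 12645 and a threshold of 0.05. Fold changes on this scale understate those of low genes. Ratios were compared by exact two-sided permutation tests. Other settings were quantile normalization, scaling by median of ratios, 0.1 as the pseudocount, a minimum mean FPKM of 5 or none, eBayes with no trend, a replicate block, unadjusted p-values and each library left out. Limma voom on recovered reads, and a pseudocount of 1 in the ratios, were added after seeing the data. The fit was also run on simulated data in which all genes had the same spread beyond counting error. The spread of real genes differs, so no conclusion is drawn from that run. Every one of the 10 enzymes is named, as are isozymes detected in any library and, of other lists, the genes past the threshold; HK2, PFKL, PFKP, LDHA, PSAT1, PSPH and the cell type markers other than KRT17 and DCN, all members of fixed lists, were named beyond that rule after their values were seen. The result of 1 gene of the lists is not reported here. The enzymes and the lists were chosen with earlier results of these data known. Promoters came from RefSeq with 1 start kept per symbol, and all 10 enzymes matched by symbol. Intervals from reads cover counting error only. Python 3.11.15, numpy 2.4.6, pandas 2.3.3 and matplotlib 3.10.9 were used for the other steps.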

Additional observations from a re-analysis of the deposited data

How the results depend on the processing

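All settings with the 4 libraries kept the sign of all 10 enzymes. In place of 772 genes lower and 779 higher, limma called 81 and 48 without a filter, 381 and 312 without a trend, 1912 and 2046 at an unadjusted p under 0.05, and 1536 and 1738 as limma voom on recovered reads. Leaving out 1 library at a time gave between 0 and 135 genes lower and between 0 and 46 higher. The 2 counts of 0 came without NC 1 and without NC 2, where 1486 and 1555 genes were lower and 1638 and 1797 higher at an unadjusted p. Of the enzymes, 1 was called lower at a mean FPKM of at least 5 (ALDOC, -0.68), 3 at an unadjusted p, 4 by limma voom (ALDOC -0.71, TPI1 -0.23, PGK1 -0.23 and PGAM1 -0.23), which also called 1 higher (ENO2, 0.44), and 0 or 1 with a library left out. That one was ALDOC without SKA3-KD 2 (-0.95, adjusted p = 0.0365, limma), and its value ran from -0.95 to -0.42 over the libraries left out. The median of the 10 ran from -0.31 without SKA3-KD 2 to -0.0408 without SKA3-KD 1. ALDOA turned to 0.0146 without SKA3-KD 1 (lowest -0.33) and ENO1 to -0.0089 without SKA3-KD 2 (highest 0.13). Quantile normalization took the median to -0.11, GAPDH to -0.01 and ENO1 to 0.22. The causes were not tested. Same-numbered libraries share only a number (correlation of deviations 0.0973); with it as a replicate block, 965 genes were lower and 1002 higher, no enzyme was called, and ALDOC had an adjusted p of 0.0515 (limma). Over settings with 4 libraries the adjusted p of ALDOC ran from 0.000145 to 0.192, that of TPI1 from 0.0119 to 0.311 and that of ENO2 from 0.0058 to 0.359. Counting error of the enzymes was between 0.44% and 4.78%, above the spread of the NC libraries for ALDOC, TPI1 and PGAM1 and below the spread of replicates in all other cases.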

Other observations

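Of 20 tested genes on a list of the branches around glycolysis, limma called 2 lower and 1 higher, against 6.11% and 6.16% of all genes tested, so these counts say nothing particular of the list. GFPT1, which draws fructose-6-phosphate into hexosamine synthesis, was at 16.5 and 16.1 FPKM in NC and at 8.72 and 8.35 FPKM in SKA3-KD (-0.86, adjusted p = 0.00837, limma). PHGDH, which opens serine synthesis from 3-phosphoglycerate, was at 37.6 and 39.1 FPKM in NC and at 28.7 and 28.1 FPKM in SKA3-KD (-0.42, adjusted p = 0.0202, limma). ALDH1B1, a mitochondrial aldehyde dehydrogenase that does not act at these steps, was the higher gene on the list (0.31, adjusted p = 0.0419, limma). The next enzymes of serine synthesis, PSAT1 (-0.09, adjusted p = 0.341) and PSPH (0.16, adjusted p = 0.22, limma), were not called. On this list 5 of 20 genes were lower in SKA3-KD 1 than in SKA3-KD 2, where all 10 enzymes and 49.2% of all genes tested were.

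BPGM, which makes 2,3-bisphosphoglycerate beside the PGK1 step, was at 10.6 and 9.09 FPKM in NC and at 10.9 and 10.7 FPKM in SKA3-KD (0.12, adjusted p = 0.399, limma). Of the other isozymes in the list, GAPDHS, PGAM4, ENO4 and PKLR did not exceed 0.455 FPKM in any library, and PGK2 and PGAM2 were not analysed here.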
